A study of Mus musculus with 12 samples.

Results

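Short exonic circular RNAs (circRNAs) are described here: those whose back-splice junction lies on annotated exons and whose span on the genome, from the first to the last base of the circle, is at most 2000 bases. They were taken from the circRNA lists of 4 libraries of cultured mouse spermatogonial stem cells (SSCs, the cells that renew the male germ line), as every circRNA of type exon within that span. The union of the lists held 29643 circRNAs, and 3358 of them were short exonic. Another 18288 were exonic with a larger span, and the rest were intronic or intergenic. The span and the type alone chose them, and no read count was used.

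The SSCs came from male F1 mice of a DBA/2 and C57BL6 cross (age label 5 dpp, days postpartum) and were grown in culture. In 2 libraries the total RNA was exposed to RNase R (an exonuclease, which degrades linear RNA from its end), and 2 libraries were untreated. The same series holds gene levels of 8 libraries of germ cells from the same cross, 2 each of primitive type A spermatogonia (priSG-A, 7 dpp), preleptotene spermatocytes (plpSC, 17 dpp), pachytene spermatocytes (pacSC, 17 dpp) and round spermatids (rST, 60 dpp), and these are used only for the host genes. The labels do not say whether replicates came from separate cultures or animals, so p-values measure only the spread between these libraries, which may be technical. The circRNA lists hold no gene levels, so the SSC label could not be checked against marker genes.

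A circRNA forms when a downstream splice donor is joined to an upstream splice acceptor, which closes 1 or more exons into a ring. The ring has no free end, so it withstands exonucleases that degrade linear RNA, and the junction between the donor and the acceptor is the only stretch that tells its reads from those of the linear transcript. Testis and brain are known as tissues rich in circRNAs.

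The lists held 263855 and 560991 junction reads in RNase R-treated replicates 1 and 2, against 21754 and 30400 in untreated replicates 1 and 2. The treated lists named 12266 and 25415 circRNAs, the untreated lists 2601 and 3578. Below, a level is the number of junction reads of a circRNA per 1000000 junction reads of the same list (RPM), so it is relative to the other circRNAs of that library and not to all RNA. A circRNA missing from a list is called not listed and counted as 0. Positions are on mm9.

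The junction sequences of 8 short exonic circRNAs are shown because, among the named circles whose junction lies within coding sequence on both sides, they had the highest levels in the treated libraries (the first 5) or were called lower there (the last 3). Each sequence has the last 25 bases of the donor exon and then the first 25 of the acceptor exon, on the strand of the gene, with the 5 bases on each side of the join in capitals. They come from GENCODE M21 transcripts (GRCm38), in the exons whose length the span matches.
Mtap1s, exons 2 to 4, plus strand, chr8:73434844-73436552: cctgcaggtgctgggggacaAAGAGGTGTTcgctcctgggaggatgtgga
Camsap1, exons 2 to 3, minus strand, chr2:25821183-25822468: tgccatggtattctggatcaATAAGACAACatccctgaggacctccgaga
Igf1r, exon 2, plus strand, chr7:75148696-75149241: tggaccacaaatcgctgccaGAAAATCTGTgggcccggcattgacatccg
Glis3, exon 4, minus strand, chr19:28605363-28606476: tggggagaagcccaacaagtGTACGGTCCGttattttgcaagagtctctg
Med13l, exon 2, plus strand, chr5:119043342-119043579: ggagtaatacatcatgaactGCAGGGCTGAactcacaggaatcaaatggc
Psme3, exons 4 to 5, plus strand, chr11:101178937-101180818: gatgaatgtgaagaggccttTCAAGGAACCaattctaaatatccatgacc
Srrm2, exon 9, plus strand, chr17:23948606-23948698: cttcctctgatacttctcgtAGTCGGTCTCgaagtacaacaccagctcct
Pwwp2a, exon 2, plus strand, chr11:43518036-43518979: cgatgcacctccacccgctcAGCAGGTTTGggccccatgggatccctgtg

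Of the 10 most read short exonic circles in the treated libraries, 6 began at exon 2 of their gene and 6 held a single exon. The circle of Mtap1s, a microtubule-associated protein, joined exons 2 to 4 of 7 (spliced length 329 bases). It had 5685 and 2777 RPM in the treated libraries (1500 and 1558 reads), against 1563 and 1184 RPM in the untreated libraries (34 and 36 reads). Both treated values lay above both untreated ones, and the treated replicates differed from each other more than the untreated ones did. The circle of Camsap1, a protein of microtubule minus ends, joined exons 2 and 3 of 17 and had 3441 and 3383 RPM in the treated libraries, against 2896 and 3191 RPM in the untreated libraries. Its 4 values lay closer together than those of Mtap1s.

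Exon 2 of Igf1r, which encodes the receptor for insulin-like growth factor 1, closed on itself as a single-exon circle of 546 bases. It had 3043 and 3506 RPM in the treated libraries (803 and 1967 reads), against 5332 and 6414 RPM in the untreated libraries (116 and 195 reads), where it was the most read short exonic circRNA. Both untreated values lay above both treated ones. Glis3, a zinc-finger transcription factor, gave 2 of the 10 most read circles, each of 1 exon. Its exon 4 (1114 bases) had 2877 and 3595 RPM in the treated libraries, against 3999 and 4178 RPM in the untreated libraries. Its exon 2 (484 bases) had 1649 and 1724 RPM in the treated libraries, against 1517 and 1086 RPM in the untreated libraries. The longer of the Glis3 circles had the higher level in all 4 libraries.

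Of the other 5 circles among the 10 highest in the treated libraries, 3 held a single exon. Exon 2 of Med13l, a subunit of the Mediator kinase module, had 2573 and 1030 RPM in the treated libraries, against 919 and 1086 RPM in the untreated libraries, so the groups overlapped. Exon 2 of Ep400, the ATPase of a chromatin remodelling complex, had 1543 and 1897 RPM in the treated libraries, against 4919 and 3980 RPM in the untreated libraries. Exon 3 of Stk35, a protein kinase, had 1126 and 1531 RPM in the treated libraries, against 1517 and 1546 RPM in the untreated libraries. Of these 3 only the Ep400 circle had groups that did not overlap, with the untreated libraries higher. That order was found in 41.0% of all 1195 circRNAs listed in all 4 libraries.

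Exons 9 to 10 of Rabgap1l, a GTPase-activating protein for Rab proteins, had 1652 and 1282 RPM in the treated libraries, against 1287 and 724 RPM in the untreated libraries. Exons 7 to 9 of 2310003H01Rik (Faap100 in GENCODE, a partner of the Fanconi anaemia core complex) had 2733 and 1724 RPM in the treated libraries. That circle had 1217 RPM in untreated replicate 2 (37 reads) and was not listed in untreated replicate 1. The 5 most read circles in the untreated libraries were those of Igf1r, Ep400, Glis3 exon 4, Camsap1 and exon 2 of Zfp516, a zinc-finger protein, the last at 872 and 1146 RPM in the treated libraries against 1241 and 2500 RPM in the untreated libraries.

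**Figure D1:**
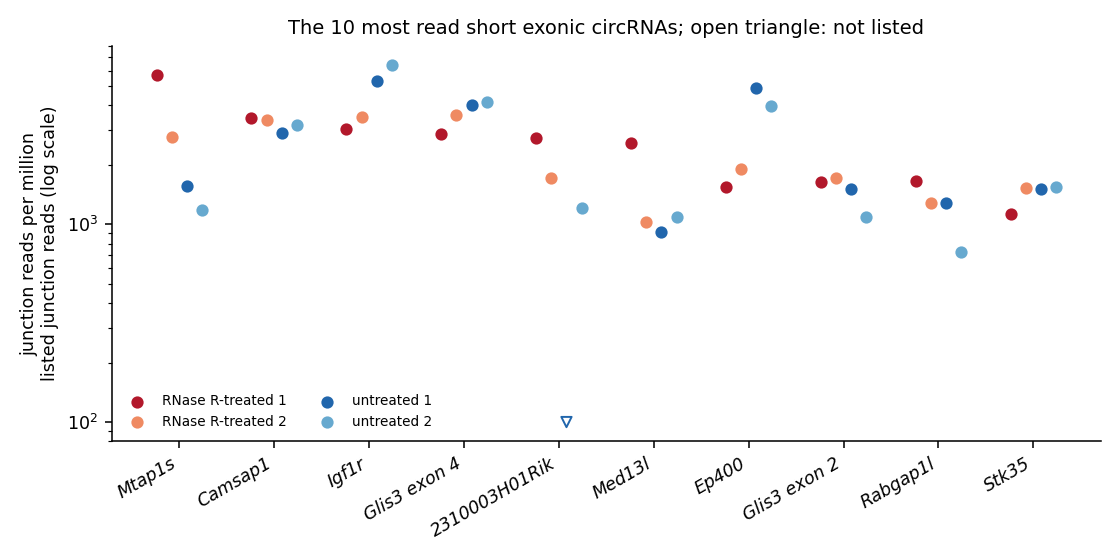
Levels of the 10 short exonic circRNAs with the highest mean in the treated libraries, in RPM on a log axis, with 1 point per library and an open triangle at the foot of the plot for a library that does not list the circle. The treated points of Mtap1s lie above its untreated points (4231 ± 2056 against 1374 ± 268 RPM, SD, n = 2 each), while those of Igf1r (3275 ± 327 against 5873 ± 765 RPM) and Ep400 (1720 ± 250 against 4449 ± 664 RPM) lie below.

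The reads were spread unevenly over the short exonic circRNAs. The 10 most read of each list took 19.5% and 18.8% of its short exonic reads in the treated libraries and 25.4% and 26.1% in the untreated libraries. Among exonic circRNAs of over 2000 bases the 10 most read took 8.34% and 7.73% in the treated libraries and 9.11% and 9.53% in the untreated libraries, though that class is larger. The median was 8 and 6 reads per listed short exonic circRNA in the treated libraries and 4 in each untreated library, the same medians as in the class of larger span. At most 5 reads stood behind 34.0% and 46.5% of the short exonic entries in the treated lists and 64.4% and 65.5% in the untreated lists, so single values of most untreated entries, and of many treated ones, carry a large counting error.

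Short exonic circRNAs took a somewhat larger part of the junction reads after RNase R than without it. They held 13.6% (95% exact binomial interval 13.5 to 13.7%) and 12.0% (11.9 to 12.1%) of all listed junction reads in the treated libraries, against 10.1% (9.67 to 10.5%) and 10.6% (10.3 to 11.0%) in the untreated libraries. Both treated shares lay above both untreated ones, a difference of 2.47 percentage points in the means (12.8 ± 1.12 against 10.3 ± 0.379%, SD, n = 2 each; exact permutation test, two-sided, p = 0.333, the smallest p that 2 against 2 libraries allow). Among exonic reads alone the shares were 16.7% and 14.5% in the treated libraries and 14.2% and 13.9% in the untreated libraries. These intervals cover counting error only, since reads copied by PCR are not separate molecules.

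As a share of listed circRNAs the groups overlapped. Short exonic circRNAs made up 1617 of the 12266 entries of treated replicate 1 (13.2%) and 2791 of the 25415 of treated replicate 2 (11.0%), against 309 of 2601 (11.9%) and 429 of 3578 (12.0%) in the untreated replicates. The means differed by 0.147 percentage points (exact permutation test, two-sided, p = 1.0). Without treated replicate 1 this difference was -0.953, so its sign rests on that library.

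The span of the short exonic circRNAs ran from 34 bases to the limit of 2000, with a median of 994.5 and quartiles of 536 and 1487.5 bases. Just inside the limit stood circles of Furin, a protease of the secretory pathway (2000 bases, 52 and 149 reads in the treated libraries against 0 and 12 in the untreated libraries), 2010111I01Rik (1999 bases) and Arhgap12 (1998 bases). Just outside it stood circles of Mtmr12 and Adipor1 (2002 bases each) and Smurf1 (2003 bases). At the other end, the 3 smallest entries were 34 bases in Gltpd1, 42 bases in Rpph1 and 45 bases in Vps26b, each listed in 1 library with 3, 12 and 2 reads. An entry of Huwe1 also spanned 45 bases, and both untreated libraries listed it.

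The shortest entries were more common in the untreated lists. Spans of at most 100 bases made up 0.680% and 0.322% of the short exonic entries in the treated lists, against 4.53% and 5.13% in the untreated lists. Spans of 101 to 200 bases made up 2.66% and 1.76% in the treated lists, against 11.7% and 4.20% in the untreated lists. For spans of 201 bases and more the classes differed less, with 28.4% and 28.1% of treated entries and 23.9% and 27.5% of untreated entries at 501 to 1000 bases. The median span was 988 and 1053 bases in the treated lists and 867 and 921 bases in the untreated lists.

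To see which entries follow annotated exons, each span was compared with the length of every run of consecutive exons (exon block) of the host gene in GENCODE M21, without using coordinates across builds. Of the 3309 short exonic circRNAs with a host in GENCODE, 2980 (90.1%) had a span that equalled an exon block to the base. With 1 base added to the span 2.63% matched a block, and with 10 bases added 2.93% did. A total of 2866 were matched to 1 block on the same chromosome, 329 matched none, 114 matched several or lay at other distances from each other than in GENCODE, and 49 had no single host there. The matched circRNAs carried 93.7% and 93.3% of the short exonic reads in the treated libraries and 86.9% and 90.0% in the untreated libraries.

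**Figure D2:**
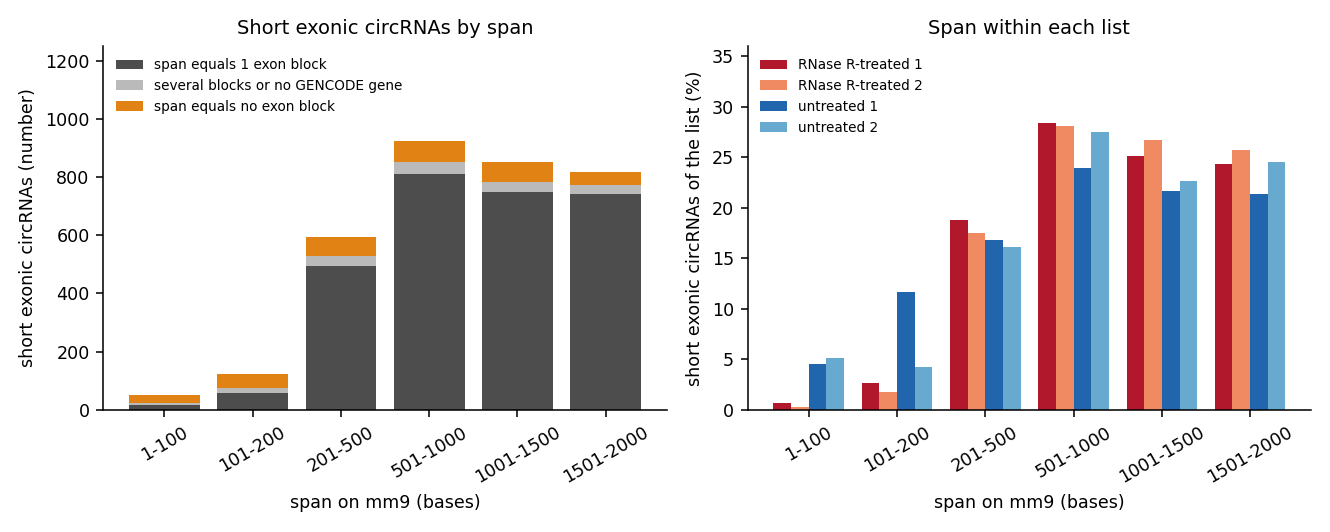
Left, number of short exonic circRNAs by span class on mm9, divided by whether the span equals 1 exon block of the host; right, percent of the short exonic entries of each library that fall in each span class. The block match holds for 32.0% of the entries of up to 100 bases, 45.2% at 101 to 200 bases and 83.3 to 90.7% in the wider classes, and the untreated libraries stand above the treated ones in the first classes.

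Entries seen only without RNase R stood apart from the rest. Of the 569 short exonic circRNAs in at least 1 untreated list, 129 (22.7%) were in neither treated list, although the treated lists held many times more reads; for exonic circRNAs of over 2000 bases it was 12.2%, for intronic ones 41.9% and for intergenic ones 59.7%. Of these 129, 42 (32.6%, exact binomial interval 24.6 to 41.4%) matched an exon block, against 403 of 440 (91.6%, 88.6 to 94.0%) listed in both groups and 2421 of 2789 (86.8%, 85.5 to 88.0%) listed only in treated libraries. Their median span was 141 bases, and 75 of them spanned at most 200 bases. The 3 with the most reads were a circle of 84 bases in Scml2, a Polycomb protein of the germ line (chrX:157662393-157662476), with 72 reads in untreated replicate 2 alone, one of Zcchc11 with 3 and 16 reads, and one of Igf2bp1, an RNA-binding protein, with 16 reads in untreated replicate 2 alone. Of the 129, 80 had at most 3 reads in all.

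Most matched circles held few exons. Of the 2866, 524 (18.3%) were made of 1 exon, 1456 (50.8%) of 2, 621 (21.7%) of 3 and 265 (9.25%) of 4 to 8. The spliced circle, with the introns inside the span removed, had a median length of 336 bases (quartiles 270 and 432, range 63 to 1983). Single-exon circles used long exons, with a median length of 408 bases. The median internal exon of their transcripts had a median of 146.5 bases over these circles. Of the 524, 471 (89.9%) exceeded the median internal exon of their own transcript. In the treated libraries the single-exon circles took 30.3% and 35.0% of the reads of matched circles, and in the untreated libraries 48.9% and 47.4%. Circles of 2 exons took 41.5% and 37.9% in the treated libraries, against 32.6% and 33.4% in the untreated libraries. Circles of 3 exons took 22.1% and 20.1% in the treated libraries, against 14.5% and 14.2% in the untreated libraries. The treated and untreated values did not overlap for any of these 3 classes, with 2 libraries a group and no test of the difference.

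The matched blocks were compared with all blocks of internal exons of the same transcripts that span at most 2000 bases (a median of 25 such blocks per transcript). Values for the possible blocks, and for all internal exons below, were first taken within the transcript of each circle. They are then means of those percents, or medians of those medians, over the circles. A start at exon 2, whose acceptor is the first of the gene, was found in 22.5% of the circles and in 10.8% of the possible blocks. Single exons made up 18.3% of the circles and 58.3% of the possible blocks, while 2-exon blocks made up 50.9% and 26.8%. Thus blocks of 2 or 3 exons were the more frequent among circles, and single exons the less frequent. Only 1 matched circle began at exon 1 and 2 ended at the last exon, places where an acceptor or a donor is lacking. Where several transcripts held a block, one with the block among its internal exons was taken first, so these low counts are partly set by that choice.

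The introns beside the circles were long. The upstream intron had a median of 3224 bases among the circles, against 1496 for the possible blocks (median of the medians within transcripts). The downstream intron had 2328 against 1307 bases. Both introns exceeded the median intron of their transcript in 57.4% of the circles and in 21.5% of the possible blocks. The base composition of the exon edges was alike: the last base of the donor exon was G in 81.9% of the circles and in 81.7% of all internal exons of these transcripts, and the first base of the acceptor exon was G in 47.8% and 49.2%. The median GC content was 51.6% in the circles and 50.7% in the whole transcripts. Blocks of 1 gene share introns and exons, so these figures are descriptions without a test.

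**Figure D3:**
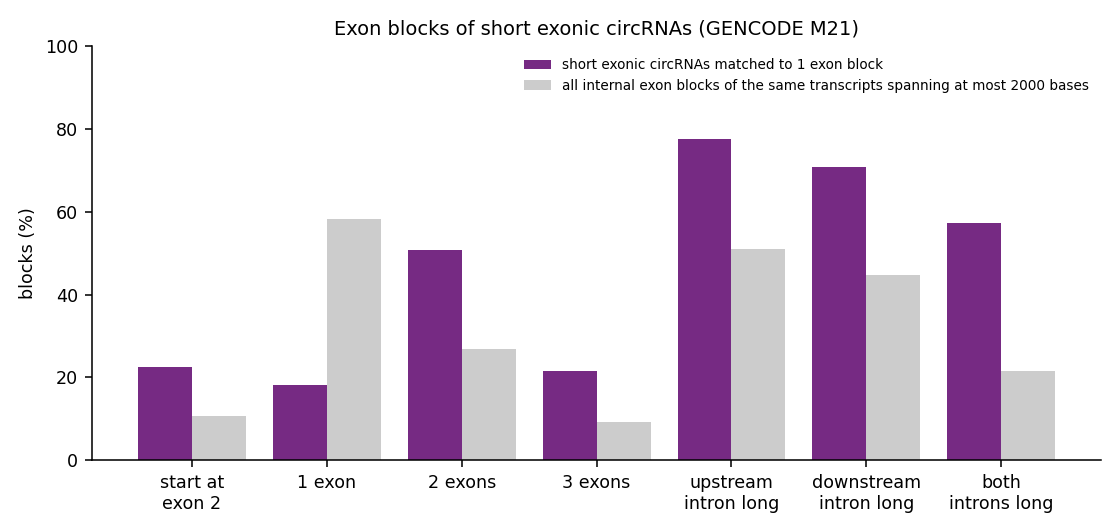
Percent of matched short exonic circRNAs, and of all internal exon blocks of the same transcripts with a span of at most 2000 bases, that start at exon 2, hold 1, 2 or 3 exons, or have an upstream intron, a downstream intron or both longer than the median intron of the transcript. Both introns are long for 57.4% of the circles and 21.5% of the possible blocks. Percents of the possible blocks are means of the percents within the transcripts of the circles.

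Circles found in more libraries had longer introns beside them and began more often at exon 2. The median upstream intron was 2844 bases for the 1714 matched circles listed in 1 library, 3790 for the 797 in 2, 4791 for the 202 in 3 and 8835 for the 153 in all 4. The downstream intron followed the same order, with medians of 2043.5, 2469, 3743 and 8120 bases. Exon 2 was the first exon of 19.0%, 25.6%, 27.2% and 40.5% of them, while the median span stayed between 1028.5 and 1074 bases. Circles that began at exon 2 took 41.2% and 42.2% of the reads of matched circles in the treated libraries and 48.5% and 47.1% in the untreated libraries, from 646 of the 2866 circles.

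Most of the matched circles lay in coding sequence. A total of 2495 (87.1%) held coding bases alone, 309 (10.8%) also held bases before the start codon, of which 259 began at exon 2, and 30 held bases after the stop codon. Another 17 lay in non-coding transcripts, 13 in untranslated exons alone, and 2 held a whole coding sequence. Among those with coding bases alone, the spliced length was a multiple of 3 in 965 (38.7%), so the frame of the host continues across the junction in these.

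Most short exonic circRNAs were in a single list. Of the 3358 short exonic circRNAs, 2113 (62.9%) were in 1 list, 861 (25.6%) in 2, 225 (6.70%) in 3 and 159 (4.74%) in all 4. The 18288 exonic circRNAs of larger span gave 62.4%, 25.3%, 7.40% and 4.88%. Of the short ones in 1 list, 1559 were in treated replicate 2, the deepest library. The treated replicates shared 1179 short exonic circRNAs, which were 72.9% of the list of replicate 1 and 42.2% of that of replicate 2. The untreated replicates shared 169, which were 54.7% of the list of replicate 1 and 39.4% of that of replicate 2. Across treatments, treated replicate 2 listed 75.1% and 84.6% of the short exonic circRNAs of untreated replicates 1 and 2.

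The chance of being listed again rose with the read count. Of the short exonic circRNAs with 3 to 5 reads in treated replicate 2, 17.5% (exact binomial interval 15.1 to 20.1%) were listed in treated replicate 1; with 11 to 20 reads 67.2% (62.1 to 72.0%) were, and with 51 to 100 reads all 128 were. Untreated replicate 2 listed 1.79% (1.03 to 2.90%), 11.5% (8.40 to 15.2%) and 61.7% (52.7 to 70.2%) of the same classes, and 93.2% (87.0 to 97.0%) of those with more than 100 reads. For the exonic circRNAs of larger span the values were 15.7%, 64.5% and 99.2% in treated replicate 1, and 2.04%, 11.9% and 64.9% in untreated replicate 2. From treated replicate 1 to 2 the classes lay further apart: of the short ones with 3 to 5 reads in treated replicate 1, 50.9% (46.1 to 55.6%) were in treated replicate 2, against 64.5% (62.4 to 66.5%) of those of larger span, a difference that was not tested. In the other direction, of the short ones with 3 to 5 reads in untreated replicate 1, 63.6% (54.2 to 72.2%) were in treated replicate 1, against 76.9% (73.7 to 79.9%) of those of larger span.

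**Figure D4:**
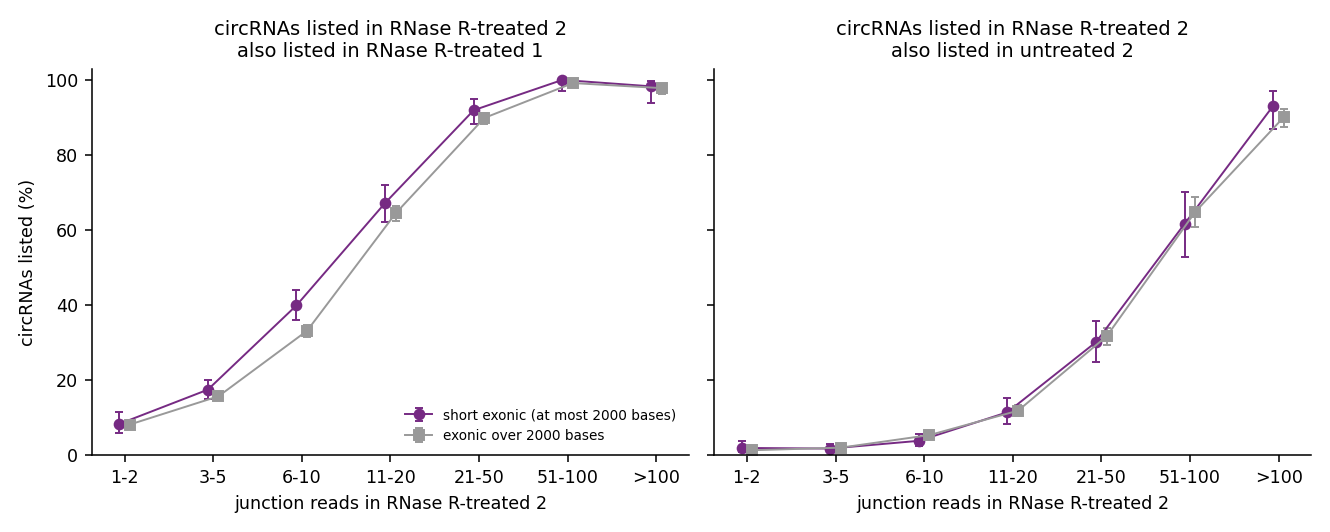
Percent of the circRNAs listed in treated replicate 2 that were also listed in treated replicate 1 (left) and in untreated replicate 2 (right), by their read count in treated replicate 2, with 95% exact binomial intervals. In the left panel the share rises with the read count in both classes, from 8.35% of the short exonic circRNAs and 8.20% of those of larger span at 1 to 2 reads, through 39.9% and 33.2% at 6 to 10 reads, to 98.3% and 97.8% above 100 reads.

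Few short exonic circRNAs were called as changed in level with RNase R, relative to the other circRNAs of the lists. The edgeR quasi-likelihood test was run on the 9976 circRNAs of all types in at least 2 lists, 1245 of them short exonic, with Benjamini-Hochberg adjustment over all, and a circRNA was called at an adjusted p under 0.05. Of the 1245, 8 were called lower in the treated libraries (0.643%), against 1.57% of all circRNAs tested, and 0 were called higher, against 0.0501% of all. At an unadjusted p under 0.05 (edgeR), 36 of the 1245 were lower and 60 higher, against 561 lower and 353 higher of all 9976. The DESeq2 Wald test called 7 short exonic circRNAs lower and 3 higher. For that test and the other settings no count over all circRNAs is given to set beside these. The circRNAs not tested were in 1 list only. The median log2 change of the 1245 was 4.79, against 4.57 over all 9976, with unlisted circRNAs entered as 0. The low number of calls does not mean that levels were alike. Nor does the median of 4.79 show a rise, since 0 was entered for circRNAs missing from the shallower untreated lists. For the 159 short exonic circRNAs listed in all 4 libraries, the median ratio of mean RPM was -0.30 on the log2 scale. The circle of Cep192, with no reads in the untreated libraries, had a log2 change of 7.96 ± 2.77 (SE) and was not called. Against a floor of 3 reads over the untreated group it was 2.40-fold higher. Leaving out 1 library moved the count of lower calls to 4 without treated replicate 1 and to 27 without untreated replicate 1, and that of higher calls to 12 without untreated replicate 1 and to 3 without untreated replicate 2.

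Of the 8 called, 3 were single circles of exon 2 with reads in all 4 libraries. The circle of Ep400, described above, had 407 and 1064 reads in the treated libraries and 107 and 121 reads in the untreated libraries (log2 change -1.48 ± 0.30, SE; adjusted p = 0.0308, edgeR). That call was lost under 7 of 11 alternatives, with log2 changes of -0.56 with TMM factors over all tested circRNAs, -1.02 with RLE size factors and -1.01 with DESeq2. The circle of Pwwp2a, a protein that binds the histone variant H2A.Z, had 224 and 308 RPM in the treated libraries, against 1333 and 1118 RPM in the untreated libraries (log2 change -2.30 ± 0.51, SE; adjusted p = 0.0469, edgeR), and was lost under 4 of 11. The circle of Rere, a transcriptional co-repressor, had 91.0 and 114 RPM in the treated libraries, against 552 and 822 RPM in the untreated libraries (log2 change -2.85 ± 0.60, SE; adjusted p = 0.0354, edgeR), and was lost under 2 of 11. In all 3 both treated levels lay below both untreated ones, as in 41.0% of all 1195 circRNAs listed in all 4 libraries. These 3 were picked because they were called lower, so the lack of overlap adds nothing to the calls.

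The other 5 were nearly or wholly missing from the treated lists. Zcchc11 (Tut4 in GENCODE, an enzyme that adds uridines to RNA ends) had a circle at chr4:108151478-108152346 with 0 and 0 reads in the treated libraries, against 3 and 16 in the untreated libraries (adjusted p = 0.00693, edgeR). Set against a floor of 3 reads over the treated group, it was 100.2-fold lower there in pooled RPM. Ratios against such a floor leave out the counting error of the reads on the other side, so they are not lower limits. The circle of exons 4 to 5 of Psme3, an activator of the proteasome, had 0 and 0 reads in the treated libraries, against 10 and 5 in the untreated libraries (adjusted p = 0.00912, edgeR). By the same floor it was 79.1-fold lower. An entry of 45 bases in Huwe1, a large ubiquitin ligase, had 0 and 0 reads in the treated libraries, against 5 and 3 in the untreated libraries (adjusted p = 0.0299, edgeR). By that floor the Huwe1 entry was 42.2-fold lower. The call of Psme3 held under all 10 alternatives in which it could be tested. That of Zcchc11 was lost without untreated replicate 2 (adjusted p = 0.0678, edgeR), and that of Huwe1 without treated replicate 1 or 2 (adjusted p = 0.979 and 0.977, edgeR) and with the replicate block (adjusted p = 0.932, edgeR).

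Exon 9 of Srrm2, a scaffold of nuclear speckles, matched an entry of 93 bases with 0 and 3 reads in the treated libraries, against 8 and 9 in the untreated libraries. The ratio of pooled RPM was 0.0112 (exact interval 0.00210 to 0.0386), with an adjusted p of 0.0102 (edgeR), which became 0.0883 without treated replicate 1. A second entry of 84 bases in Scml2, chrX:157665305-157665388, had 2 and 0 reads in the treated libraries, against 0 and 28 in the untreated libraries (ratio 0.00452, exact interval 0.000521 to 0.0179; adjusted p = 0.0321, edgeR). It rests on untreated replicate 2, since without that library the log2 change was 2.83 and not called, and the DESeq2 Wald test did not call it either (adjusted p = 0.526). Both Scml2 entries had the same length and were absent from untreated replicate 1.

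**Figure D5:**
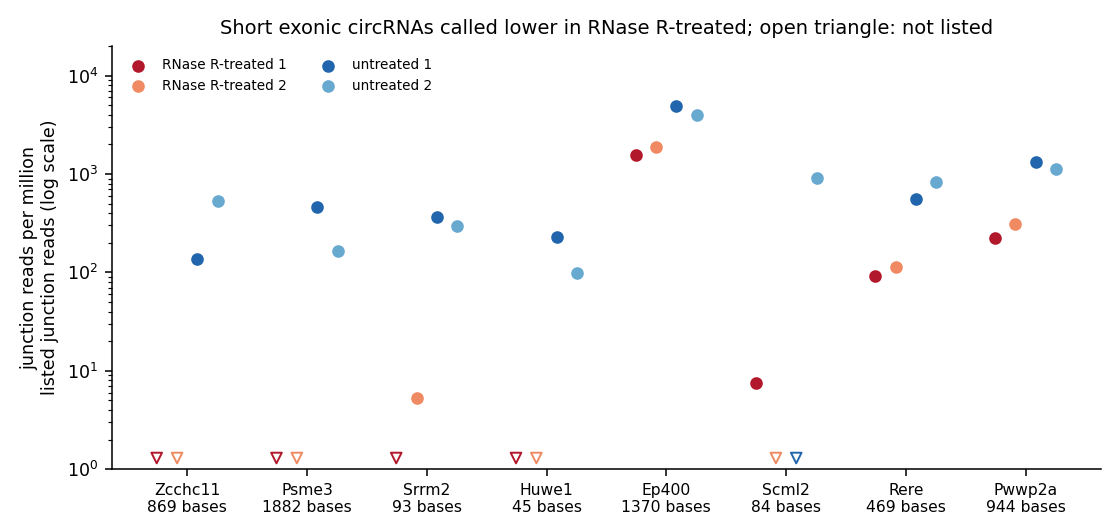
Levels of the 8 short exonic circRNAs called lower in the treated libraries, in RPM on a log axis, 1 point per library, with an open triangle where a library does not list the circle. Ep400, Rere and Pwwp2a have points in all 4 libraries, and the treated points of the other 5 are missing or below 10.

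The circles of Mtap1s and Igf1r were not called. The log2 change of Mtap1s was 1.50 ± 0.38 (SE; adjusted p = 0.092, edgeR), and it was called higher under 7 of 11 alternatives (log2 changes of 1.43 to 2.35 in these 7, and of 0.90 to 2.35 over all 11). That of Igf1r was -0.95 ± 0.25 (SE; adjusted p = 0.127, edgeR), and it was called lower under 2 of 11. Both values depended on the scaling: with TMM factors over all tested circRNAs the log2 change of Igf1r was -0.0495 and with RLE size factors -0.50. These settings moved the median log2 change of the 1195 circRNAs listed in all 4 libraries by 0.90 and 0.46. Among the 159 short exonic circRNAs listed in all 4 libraries, 58 had both treated levels below both untreated ones, against 41.0% of all 1195 circRNAs listed in all 4. A further 32 had both treated levels above, against 17.1%. The median ratio of mean RPM was -0.30 on the log2 scale (quartiles -0.88 and 0.31), against -0.34 over all 1195. Presence in both untreated lists was part of the choice of these 159, so their direction is only a description.

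Gene structure differed among the circRNAs of the genes with most entries. A total of 3328 short exonic circRNAs lay inside 1 host locus, 26 inside several and 4 inside none, which gave 2384 hosts. Of these, 1752 (73.5%) had 1 short exonic circRNA, 447 had 2, 116 had 3 and 69 had at least 4, and 1580 (66.3%) also hosted an exonic circRNA of over 2000 bases. A total of 1827 (54.4%) shared their start or their end with another listed circRNA, against 79.3% of the exonic circRNAs of larger span.

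Rpph1, the RNA of the RNase P ribozyme, had the most, 11 entries between positions 51427122 and 51427446 of chromosome 14, and none matched an exon block. Spans ran from 42 to 325 bases, and the reads summed to 282 and 887 in the treated libraries, against 11 and 0 in the untreated libraries. Its most read entry, of 165 bases, had 667 reads in treated replicate 2 and was in no other list. The replicates therefore differed in part in which Rpph1 junctions they held. Of the 11 entries, 4 were in at least 2 lists. Among these, the entry of 248 bases had 176 and 87 reads in the treated libraries and 11 in untreated replicate 1. Malat1, a nuclear long non-coding RNA, had 7 entries without a block and at most 5 reads each in any library.

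Fzr1, an activator of the anaphase-promoting complex, had 9 circles, the most of any gene coding for a protein. All began at exon 2 or 3 where matched and ended at exons 4 to 8, and none was in an untreated list. The acceptors were few and the donors many: 2 positions on one side and 6 on the other were joined in different pairs. With exon 2 as the first exon, the circle that ends at exon 8 had 7 and 15 reads in the treated libraries, that ending at exon 7 had 4 and 9, and that ending at exon 5 had 7 and 13. Ckap5 (a microtubule polymerase), Lrrc68, Pip5k1c (a lipid kinase), Th1l (a subunit of the elongation factor NELF) and Huwe1 had 7 each. Pip5k1c had the most reads of these, 370 and 524 in the treated libraries against 19 and 13 in the untreated libraries, mostly from a circle of exons 2 to 5 (187 and 276 against 13 and 6) and one of exon 7 alone (150 and 190 against 6 and 7). The 7 Ckap5 circles shared no start and no end, and that of exons 10 to 11 alone was in all 4 lists.

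Hosts of short exonic circRNAs were expressed in germ cells, as far as the FPKM files of other cells show. In the priSG-A libraries, the stage closest in age to the SSC label, 94.5% and 94.0% of the 2384 hosts reached 1 FPKM (a level of fragments per gene length and library size), against 54.4% and 53.1% of all 22552 gene symbols. The median was 13.4 and 12.9 FPKM for these hosts, 9.78 and 9.71 FPKM for the 3294 hosts of larger exonic circRNAs alone, and 1.64 and 1.43 FPKM for all symbols. In the rST libraries the hosts had a median of 5.47 and 4.92 FPKM, against 1.01 and 0.833 FPKM for all symbols. The hosts of the most read circles were not the genes of highest level. Glis3 had 3.32 ± 0.0131 FPKM in the priSG-A libraries, 0.481 ± 0.217 in those of plpSC, 0.141 ± 0.0325 for pacSC and 0.157 ± 0.0138 for rST (SD, n = 2 each). Igf1r was at 13.4 ± 0.789, 3.41 ± 1.85, 0.779 ± 0.285 and 0.678 ± 0.144 FPKM in the same stages, and Mtap1s at 15.0 ± 0.538, 4.06 ± 0.423, 3.45 ± 0.0637 and 3.10 ± 0.401 FPKM. The other hosts of the 10 most read circles did not all fall. Med13l went from 6.20 FPKM in priSG-A to 1.15 FPKM in rST, but Camsap1 rose from 22.6 to 62.1 FPKM. Stk35, 2310003H01Rik, Ep400 and Rabgap1l also had higher means in rST than in priSG-A. Rpph1 was at 52461 ± 3363 FPKM in priSG-A.

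Gene lists of 8 kinds were set against all genes, of which 10.6% hosted a short exonic circRNA, and against those with at least 1 FPKM in both priSG-A libraries, of which 19.0% did. Of the genes with a locus, hosts were 18 of 27 known circRNA hosts, 29 of 46 chromatin regulators, 16 of 28 ubiquitin ligases and deubiquitinases, 18 of 34 genes of DNA repair and replication, 9 of 19 of the centrosome and kinetochore, 8 of 17 of the piRNA pathway, 10 of 22 factors of circRNA formation and turnover, and 10 of 29 regulators of spermatogonia. Only Rere, among the known circRNA hosts, and Huwe1, among the ubiquitin ligases, carried a circle called lower. In each list more genes hosted an exonic circRNA of over 2000 bases than a short one, so these shares are not particular to short span. Examples were 41 of the 46 chromatin regulators and 26 of the 28 ubiquitin ligases and deubiquitinases, against 4874 of all 22552 genes. The lists were drawn up with earlier results of these data known, and no test was made of them.

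Among known circRNA hosts, the exon 2 circle of Cdyl, a chromodomain protein, had 1296 and 1173 RPM in the treated libraries, against 414 and 789 RPM in the untreated libraries. That of exon 2 of Nfix, a transcription factor, had 1103 and 1196 RPM in the treated libraries, against 827 and 493 RPM in the untreated libraries. For both, the treated levels lay above the untreated ones, as in 17.1% of all 1195 circRNAs listed in all 4 libraries. Neither was called (adjusted p = 0.417 for each, edgeR). Among regulators of spermatogonia, Etv5, a transcription factor that acts downstream of GDNF, had a circle of exons 2 to 5 with 254 and 250 RPM in the treated libraries, against 91.9 and 296 RPM in the untreated libraries. Exon 6 of Gfra1, the receptor for GDNF, had 189 and 217 RPM in the treated libraries, against 263 RPM in untreated replicate 2 and no entry in untreated replicate 1. Taf4b, a subunit of a germ cell form of TFIID, had a single-exon circle with 10 and 11 reads in the treated libraries alone (37.9 and 19.6 RPM). A floor of 3 reads over the untreated group is 57.5 RPM, so its absence there does not show a lower level.

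In the piRNA pathway, which silences transposons in the germ line, circles of Mael (exons 5 to 7, 212 and 173 RPM), Rnf17 (189 and 82.0 RPM) and Tdrd7 (exon 15, 129 and 58.8 RPM) were the most read in the treated libraries. Each was in 1 untreated list, with 5, 10 and 4 reads (164, 460 and 132 RPM). For Rnf17 and Tdrd7 that untreated level lay above both treated ones. Among chromatin regulators, exons 12 to 13 of Uhrf1, which recruits the maintenance DNA methyltransferase, had 845 and 373 RPM in the treated libraries, against 690 and 428 RPM in the untreated libraries. Exons 19 to 20 of Mll1 (Kmt2a in GENCODE), a histone methyltransferase, had 451 and 519 RPM in the treated libraries, against 552 and 230 RPM in the untreated libraries. Ep300, a histone acetyltransferase, had 5 short exonic circRNAs, the most read of them with 220 and 159 RPM in the treated libraries, against 98.7 RPM in untreated replicate 2 alone. The groups overlapped for Uhrf1 and Mll1.

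Among ubiquitin ligases, exon 4 of Fbxw7 had 481 and 332 RPM in the treated libraries, against 276 and 230 RPM in the untreated libraries. Exon 2 of Rnf111 had 110 and 150 RPM in the treated libraries, against 460 and 230 RPM in the untreated libraries. Exon 12 of Trp53bp1, a protein of double-strand break repair, had 46 and 70 reads in the treated libraries and none in the untreated ones. It was 2.45-fold higher in pooled RPM against a floor of 3 reads over the untreated group. Exons 11 to 12 of Cep192, a centrosome protein, had 42 and 72 reads in the treated libraries and none in the untreated ones, 2.40-fold higher by the same floor. Neither was called (adjusted p = 0.356 and 0.364, edgeR). Exons 16 to 17 of Bub1b, a kinase-like protein of the spindle checkpoint, had 568 and 267 RPM in the treated libraries, against 506 and 428 RPM in the untreated libraries.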

How the data were processed

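Back-splice junction reads were counted per circRNA in 4 SSC libraries and gene levels in 8 germ cell libraries. Per the file headers, the deposited circRNA lists give whole counts of junction reads with a circRNA type, in the column layout of CIRI; its version, read minimum and annotation are not given in the sources used here. Per the file headers, the deposited gene values are FPKM, and BWA, Cuffdiff, TopHat2 2.0.6 and build mm9 are named, with no role, per the submitters' processing notes.

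Libraries were grouped by their titles. An unlisted circRNA was entered as 0; the lists hold few counts of 1, so a circle with 1 read may be unlisted. Hosts were the genes whose mm9 locus, from the FPKM file with loci, contained the whole circRNA. Exon blocks and sequences came from GENCODE M21 (GRCm38) by exact length, with no conversion of coordinates. Counts were tested with edgeR 4.0.16 in R 4.3.3 (quasi-likelihood, treatment only, circRNAs in at least 2 lists, TMM factors from circRNAs with at least 200 reads over the 4 libraries), and DESeq2 1.42.0 was an alternative. Taking the TMM factors from the well-read circRNAs was chosen after factors from all circRNAs came out unequal in simulated data without a change. Shares have 95% exact binomial intervals, which cover counting error only. Floors are 3 reads over a group and cover only the counting error of the side without reads. The SE printed for a log2 change was worked back from the edgeR test. It is the size of the change divided by the square root of the F statistic, not an error fitted on its own. Python 3.11.15 with scipy 1.17.1 served for the rest.

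The class, the gene lists and the rule for named circRNAs were chosen with earlier results of these data known. Named are the 10 most read circRNAs in treated and the 5 in untreated libraries, those called, the 3 smallest and 3 largest spans with the 3 next above the limit, the 3 most read in untreated lists only, the 8 hosts with most entries and up to 3 hosts per gene list; beyond the rule, all 8 called circRNAs and the other circRNAs of the named hosts are given. Some hosts that the rule names are not reported here.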

Additional observations from a re-analysis of the deposited data

How the results depend on the processing

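Of the counts of circRNAs called lower (8) and higher (0), both shifted with the normalization and the filter. Counts over all circRNAs tested are not given for the alternatives, so it is not shown whether the shifts are particular to short exonic circRNAs. With TMM factors over all tested circRNAs, an alternative chosen after seeing the data, 5 were lower and 4 higher; with RLE size factors 5 were higher, and without factors 18 were lower and 5 higher. With circRNAs in at least 1 list 38 were lower and 3 higher, with those in at least 3 lists 5 and 2, and the DESeq2 Wald test called 3 higher. With the replicate block 2 were higher and 8 lower, 7 of these among the 8 of the fit without it, which also held Huwe1; deviations of same-numbered libraries had a correlation of 0.199 over 1195 circRNAs, and the labels do not say what the number marks, so whether these libraries are paired is not known. Leaving out 1 library gave 4 to 27 lower and 0 to 12 higher, with a lone library taken to vary like the other group. The difference in the share of reads kept its sign throughout (1.27 to 3.77 percentage points); that in the share of listed circRNAs turned to -0.133 with spans of at most 1500 bases, and lay between -0.953 and 1.25 when 1 library was left out. The log2 change of the second Scml2 entry lay between -9.71 and 2.83 when 1 library was left out, positive only without untreated replicate 2. With at least 5 reads required, 1112, 118 and 77 circRNAs were in 1, 3 and 4 lists. With circRNAs in at least 2 lists, 1236 had 1 host and there were 1054 hosts. The cause of these shifts was not tested, apart from the filters, which change the circRNAs counted. Of the short exonic circRNAs with 6 to 10 reads in treated replicate 2, 3.86% were listed in untreated replicate 2. Of those with 6 to 10 reads in treated replicate 1, 4.21% were listed in untreated replicate 1. The depth of the lists and the RNase R treatment differ together, so their parts in this cannot be told apart.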
